A study of Drosophila melanogaster and Drosophila virilis and Drosophila yakuba with 44 samples.

Results

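The cytoplasmic ribosomal protein genes of *Drosophila melanogaster*, with the paralogs that share their names, were followed through 3′-seq and RNA-seq read counts. Members were the rows of the *D. melanogaster* count tables whose gene symbol begins with RpL, RpS or RpLP followed by a digit. The rule used no measured value and gave 92 genes of 13458, 54 named for the large subunit and 38 for the small subunit. Of these, 27 fall into 13 paralog families by a final a, b or -like, and the other 65 are called single-copy here. A capital A, as in RpL7A or RpS3A, marks a different protein and not a paralog.

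The 3′-seq libraries, which carry reads at the polyadenylated ends of transcripts, came from 10 cultured cell lines (gm2, mbn2, cmel1, BG3, mldmd16_c3, Dmd4, Dmd32, Dmd20, OSS and S2R+), from embryos of 6 age windows (which begin at 0 min, 45 min, 90 min, 6 h, 12 h and 18 h and run without a gap to 24 h), and from 7 adult samples (testis, whole male, male carcass, female head, ovary, whole female and female carcass). Testis, head and ovary came from Canton S flies aged 2-5 days, the heads from mated females, and the same RNA was also used for total RNA-seq. The whole flies were mated and also aged 2-5 days. A carcass is a body without its head and gonads, here from flies aged 2-5 days. Head, ovary and testis of *D. yakuba* and *D. virilis*, used at the end, came from flies of the same age, the heads from mated females. RNA of all lines but OSS came from the modENCODE collection, so for these lines RNA source and class cannot be told apart. No sample carries a mutation or a treatment by its labels, OSS cells descend from ovarian somatic cells, and each line is a cultured population rather than a tissue. Every condition had 1 library, so a comparison of 2 libraries is a description, and only comparisons of the 3 classes (cell lines, embryos and adult samples) have libraries to serve as replicates of a class. In such bulk RNA, fewer cells of a type and less RNA per cell cannot be told apart.

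Each cytoplasmic ribosome holds 1 copy of nearly every ribosomal protein, built together with ribosomal RNA into a small subunit, which reads the mRNA, and a large subunit, which joins amino acids. Growing cells give much of their transcription to these proteins. Loss of 1 gene copy of many of them gives the *Minute* phenotype of slow development and thin bristles in flies. A few of the proteins are encoded by a pair of genes, and flies, like other animals, are known to use some of the second copies chiefly in the germ line.

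Counted reads per 3′-seq library ranged from 477958 to 9793900 in cell lines, from 42379 to 5546261 in embryos and from 1519235 to 15693295 in adult samples. The 42379 belong to the 45-90 min embryos, where 3 reads, the floor used here, equal 35.8 RPM (reads scaled to a library of 1000000 after TMM normalization), against 0.264 RPM in ovary. Markers matched the labels of testis, ovary and head: 8 testis genes summed to 16514 RPM in testis and to at most 738 RPM elsewhere, 8 ovary and maternal genes reached 26854 RPM in ovary, and 8 head genes reached 31022 RPM in head. The testis library also held transcripts of the male accessory gland (5 genes, 3134 RPM) and of the chorion gene Cp36 (733 RPM). The whole-male library held maternal transcripts, among them osk at 334 RPM, against 1.63 RPM in male carcass.

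The members share features of gene structure that the rule did not use. In the BDGP6 annotation, 28 of 92 members (30.4%) enclosed at least 1 snoRNA gene on their own strand, against 0.618% of the 13423 genes of the table that could be placed. RpS5a (chromosome X, 17143588 to 17148264, minus strand) enclosed 14 of the 74 such snoRNA genes. The median summed exon length was 901 nt for members and 1772 nt for all placed genes. Of the 65 single-copy members, 5 (7.69%) lay on chromosome X, which carried 15.9% of placed genes. Among the families, 8 of the 13 more abundant genes lay on X, whereas 13 of the 14 less abundant members lay on an autosome, the exception being RpS14b beside RpS14a. Of the 14 less abundant members, 5 had a single exon (RpL10Aa, RpL37b, RpS10a, RpS15Ab and RpS28a), against 1 of the 65 single-copy members, and none of the 14 enclosed a snoRNA gene.

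Ribosomal protein genes took a larger part of the reads in cell lines and embryos than in adult samples. Their share of counted reads was 25.1% ± 5.33 in cell lines (SD, n = 10), 22.1% ± 2.69 in embryos (n = 6) and 10.2% ± 5.26 in adult samples (n = 7). Cell lines exceeded adult samples by 14.8 percentage points (exact permutation test, two-sided, p = 0.000309, adjusted over 3 comparisons p = 0.000926), and embryos exceeded adult samples by 11.8 points (exact permutation p = 0.00233, adjusted p = 0.00350). Cell lines and embryos differed by 3.01 points, which did not pass (exact permutation p = 0.219, adjusted p = 0.219). Whole flies contain the tissues of the other adult libraries, so the adult libraries are not fully separate samples.

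Within each class the libraries varied. Dmd20 was highest at 32.8%, and gm2 (16.4%) and OSS (17.9%) were the lowest lines. In embryos the share was 17.4% at 0-45 min, 20.9% at 45-90 min, 23.9% at 90 min to 6 h, 24.2% at 6-12 h, 21.8% at 12-18 h and 24.2% at 18-24 h. Testis was lowest of all 23 libraries at 2.70% (95% Wilson interval 2.69 to 2.71, counting error only), followed by head (7.65%), male carcass (8.24%), female carcass (8.42%), whole male (10.6%), whole female (16.2%) and ovary (18.0%). The classes therefore overlapped, since ovary lay above gm2, OSS and the 0-45 min embryos. An 8-gene list of yolk protein, muscle and fat genes summed to 295017 RPM in female carcass, 132659 RPM in head, 49040 RPM in whole female and 10944.5 RPM in ovary. It summed to 10624 RPM in male carcass, 4171 RPM in whole male and 402 RPM in testis. The part of these transcripts in the shares was not tested. With the 50 other genes of most reads left out of each library, the differences from adult samples were 15.7 points for cell lines (exact permutation, adjusted p = 0.00154) and 12.7 points for embryos (adjusted p = 0.00524). In sums of TMM-scaled RPM, the difference of embryos from adult samples no longer passed (65202 RPM higher, exact permutation, adjusted p = 0.135).

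**Figure D1:**
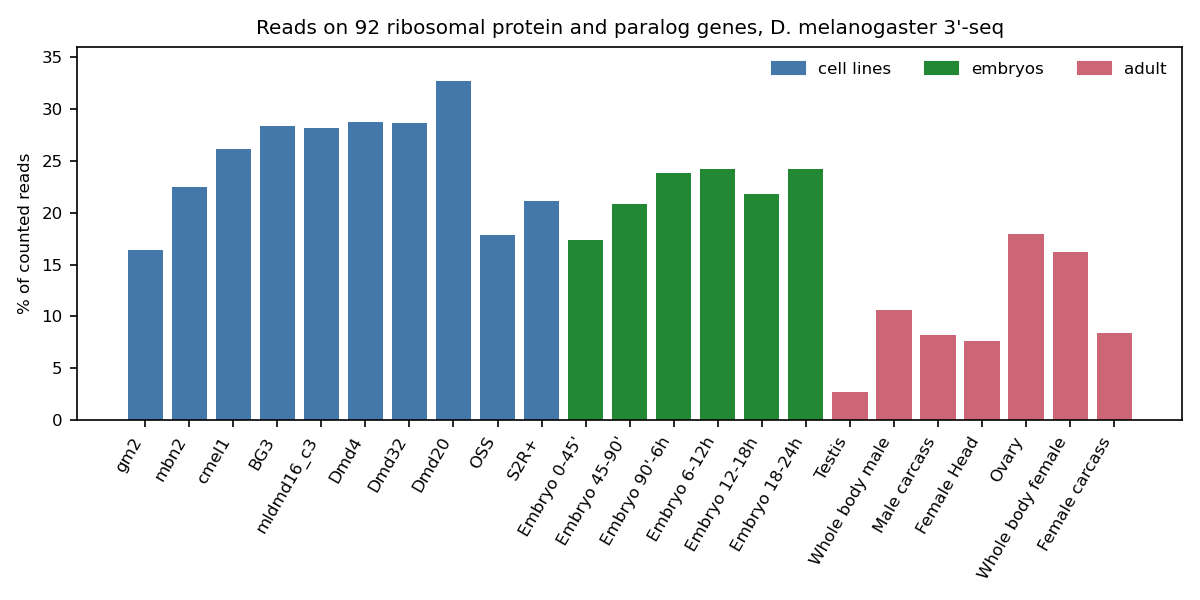
Percent of counted reads on the 92 ribosomal protein and paralog genes in each *D. melanogaster* 3′-seq library (1 bar per library, coloured by class). Cell lines and embryos stand between 16.4% and 32.8%, and adult samples between 2.70% in testis and 18.0% in ovary.

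Gene by gene, 27 members were higher in cell lines than in adult samples and none was lower (edgeR quasi-likelihood test over 9221 genes, false discovery rate 0.05, 87 members tested). Over all genes tested, 4.13% were higher and 17.5% were lower. The median log2 difference was 0.70 for members and -0.31 for all genes. RpL23, which lies at the joint between the subunits, had the largest called difference (log2 1.52 ± 0.35 SE, adjusted p = 0.00307). Its lowest, median and highest levels were 1491, 4745 and 6597 RPM in cell lines, against 461, 1505 and 3077 RPM in adult samples. RpS3, at the mRNA entry channel, followed with log2 1.45 ± 0.31 (adjusted p = 0.00170), with 4304, 9720 and 16727 RPM in cell lines against 1219, 3826 and 5856 RPM in adult samples. RpS5a, at the mRNA exit, came next (log2 1.42 ± 0.41, adjusted p = 0.0137), with 1588, 4474 and 5662 RPM in cell lines against 519, 1631 and 2200 RPM in adult samples. For all 3 genes the ranges overlapped between the classes.

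The count of 27 moved with the libraries and the scaling. It was 10 without the 2 whole-body libraries, 11 without female head, 12 without testis, 12 without whole male, 15 without Dmd32, 16 without Dmd20, 16 without whole female and 17 without the 6-12 h embryos. Without Dmd32 and without whole female, 1 of those calls was for a member lower in cell lines. The call for RpS5a was lost without any 1 of Dmd32, female head, ovary, testis, whole female and whole male (adjusted p between 0.0508 and 0.0742). RLE scaling gave 13 members higher. Scaling by library totals alone moved the median of all genes to 0.29 and gave 69 members higher, and relative to that median the members stood 0.93 higher, against 1.01 with TMM. In embryos against adult samples no member passed in edgeR (20 at an unadjusted p under 0.05, background 0.781% higher and 3.88% lower), while DESeq2 called 12 higher and 1 lower. In cell lines against embryos no member passed in edgeR either (4 at an unadjusted p under 0.05, background 4.05% higher and 7.55% lower), and DESeq2 called 1 in each direction. The 5 members not tested for low counts were RpL7-like, RpL10Aa, RpL37b, RpS28a and RpS28-like.

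Lists of other translation genes and of ribosome biogenesis genes were read from the same fit of cell lines against adult samples, in which 4.13% of all genes were higher and 17.5% lower. Neither sta nor Rack1, the small-subunit proteins outside the name pattern, passed the test (log2 0.79 ± 0.37, adjusted p = 0.135, and 0.28 ± 0.36, adjusted p = 0.640, edgeR). Of 13 translation factors tested, none was higher and 1 was lower, Ef1alpha100E, the second gene of elongation factor 1 alpha (log2 -5.77, adjusted p = 0.000281), and the list's median was 0.28. Of 20 ribosome biogenesis genes tested, which include the member RpL24-like (log2 0.45, adjusted p = 0.301), 1 was higher, RpI135, a subunit of RNA polymerase I (log2 1.46, adjusted p = 0.0174), and the median was 0.46, against -0.31 over all genes.

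All 65 single-copy members had reads in each of the 23 libraries. Each library's median single-copy level was subtracted, which removes any shift that these genes share. The SD of a gene over the 23 libraries then had a median of 0.29 on the log2 scale. Of the 65 genes, 60 stayed under 0.5, and no such SD of other genes is set beside these values. The steadiest was RpL7A at 0.15. The 5 with the largest SD were RpL28 (1.54), RpL41 (0.55), RpS3A (0.53), RpL18 (0.52) and RpL8 (0.50). A gene stood more than 1 log2 unit from its own median relative level in 21 of 1495 values, of which 17 were in cell lines, none in embryos and 4 in adult samples.

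RpL28, a large-subunit protein without a counterpart in budding yeast, was low in 2 lines. It had 52.9 RPM (135 reads) in mbn2 and 55.6 RPM (395 reads) in S2R+. In the other 8 lines it had 1439 to 4548 RPM, so those 2 lines stood apart from every other line and also lay below testis (333 RPM). RpL18, another large-subunit protein, was lowest among cell lines in the same pair, with 368 RPM in mbn2 and 400.2 RPM in S2R+, against 765 to 2180 RPM in the other 8. Testis had less RpL18 than either line, 236 RPM.

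RpS3A, a small-subunit protein encoded on chromosome 4, was 1.55 log2 units below its own median relative level in cmel1 (1070 RPM) and 1.03 below in Dmd32 (1304 RPM). RpL41, the shortest ribosomal protein, was 1.42 above its median in testis (4756 RPM) and 1.17 below it in S2R+ (3993 RPM). RpL8, a core protein of the large subunit, was 1.39 above its median in BG3 (3569 RPM). Further departures in BG3, S2R+ and mbn2, singled out after their values were seen, were RpL23A in BG3 (1.48 above, 10118 RPM), RpS3 in S2R+ (1.43 above, 16727 RPM), and RpL5 in mbn2 (1.48 above, 5513 RPM).

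**Figure D2:**
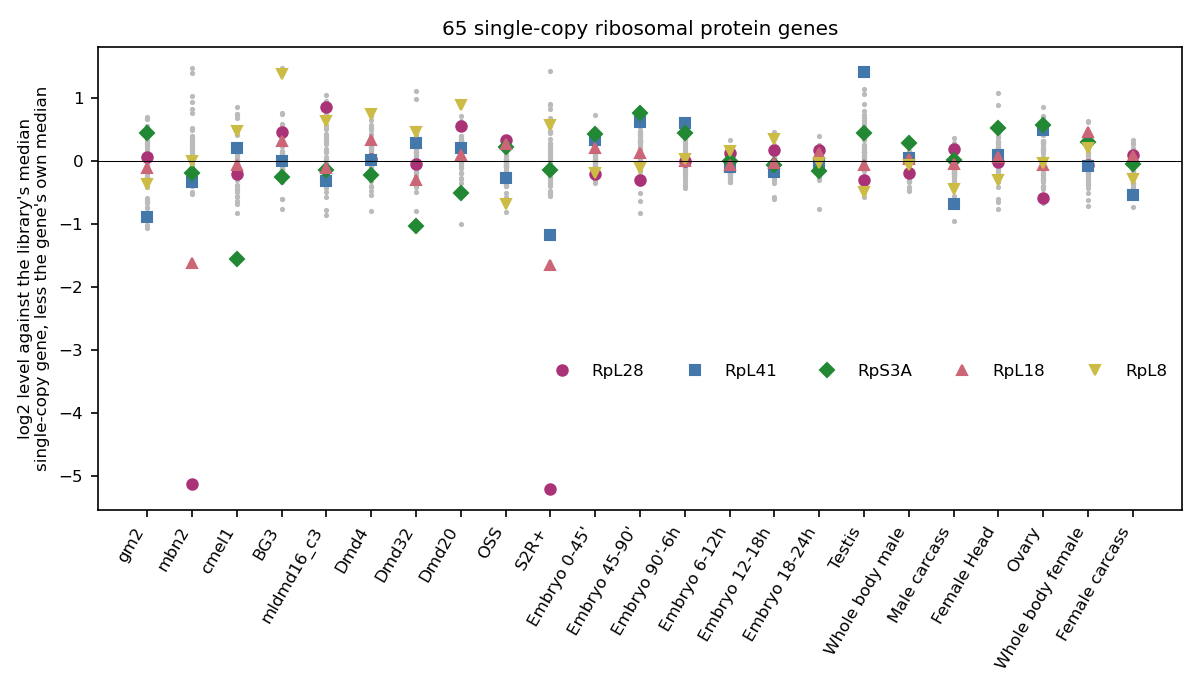
Level of each of the 65 single-copy genes in each library on the log2 scale, relative to that library's median single-copy gene and to the gene's own median over 23 libraries (grey points; the 5 genes with the largest SD are coloured). Most points lie within 1 unit of 0, and RpL28 lies more than 5 units below 0 in mbn2 and S2R+.

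In testis nearly all members except a few paralogs were low. In testis against ovary, 84 members were more than 2-fold lower and 7 were more than 2-fold higher of the 91 with at least 5 RPM in either library (background 34.8% lower and 38.5% higher). All 65 single-copy members were lower in testis, with log2 ratios from -3.25 to -1.25 and a median of -2.49, against -0.04 for all genes. Total RNA-seq of the same tissues gave the same counts, 84 lower and 7 higher (background 34.8% lower and 37.6% higher), and a single-copy median of -2.55. The single-copy genes ranged from -3.18 to -1.51 in RNA-seq, and all 65 were again past 2-fold lower. The size of the 3′-seq difference moved with scaling. With RLE, 68 members were lower and 7 higher, the single-copy median was -1.31 and the median of all genes was 1.21. With library totals, 84 were lower and 7 higher, and these medians were -2.91 and -0.59. Relative to the median of all genes, the members' median was -2.41 with TMM, -2.47 with RLE and -2.27 with library totals.

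The lowest ratios in testis against ovary were those of RpS5b (163 RPM in testis against 2011 RPM in ovary), of RpL5, which carries 5S ribosomal RNA into the large subunit (304 against 2912 RPM), and of RpL3, a protein near the peptidyl transferase centre (89.0 against 847 RPM). In testis against head, 72 of 91 members were lower and 8 higher (background 34.9% and 38.2%), with a single-copy median of -1.37. In testis against male carcass, 70 of 91 were lower and 8 higher (background 33.7% and 39.3%), with a single-copy median of -1.54. The 8 higher genes were the same in both comparisons, namely RpL10Aa, RpL22-like, RpL37b, RpS5b, RpS10a, RpS19b, RpS28a and RpS28-like. These comparisons share the testis library. RNA-seq of testis against head gave 69 of 91 lower and 8 higher (background 34.3% and 36.9%). The lowest ratio against head was that of RpL22 (135 RPM in testis against 919 RPM in head).

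**Figure D3:**
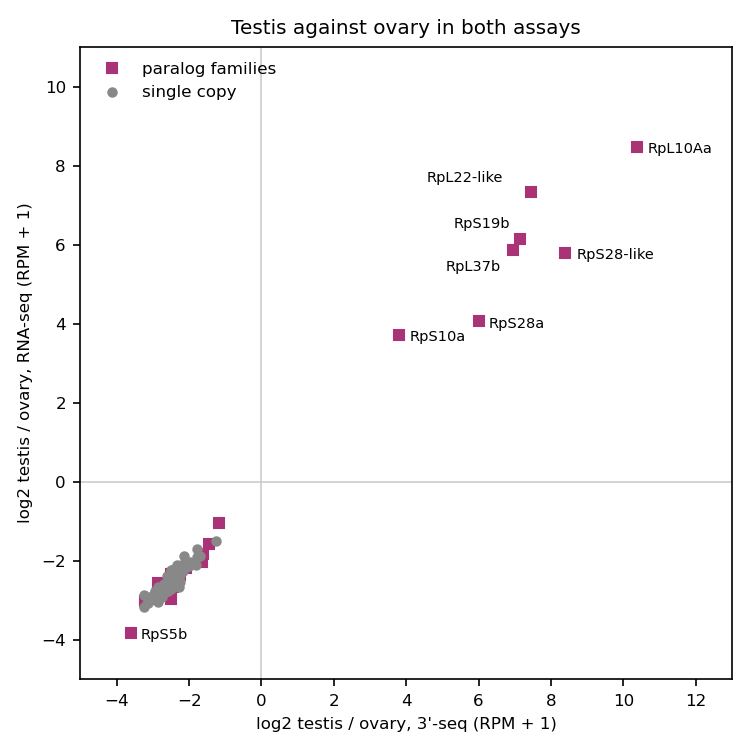
Log2 ratio of testis to ovary for each member in 3′-seq (x axis) and RNA-seq (y axis), with 1 RPM added to each level. The single-copy genes (grey) lie between -3.25 and -1.25 in 3′-seq, 7 paralogs lie above 3 in both assays, and RpS5b is lowest in both.

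Of the paralogs, 7 had their highest level of all 23 libraries in testis, and together they took 6.20% of the testis reads on members, against 0.134% in whole male and 0.00603% in ovary. They were found in whole male at 2.04 to 51.1 RPM, and in male carcass none exceeded 0.714 RPM. The 8 testis markers behaved alike in those libraries, with 16514 RPM in testis, 738 RPM in whole male and 9.79 RPM in male carcass. Paralog shares are given below as a percent of the reads of the family, with the counting interval where it bears on the value.

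RpL10Aa encodes a second form of RpL10A, a protein of the L1 stalk at the tRNA exit. It had 1326 RPM in testis, 51.1 RPM in whole male, 0.714 RPM in male carcass, 0.214 RPM in head and no read in ovary, which makes it at least 5019-fold higher in testis than in ovary (3 reads in the ovary library as the floor). Its share of the pair was 54.1% in testis (Wilson interval 53.2 to 55.0), so that it exceeded RpL10Ab, which had 1124 RPM there. No embryo library held a read of RpL10Aa, and among cell lines gm2 had the most, 2.97 RPM.

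RpL22-like encodes a second form of RpL22, an RNA-binding protein of the large subunit. It had 205 RPM in testis, 21.7 RPM in whole male, 0.510 RPM in male carcass, 0.214 RPM in head and 0.176 RPM in ovary. It made up 60.2% of the pair in testis (57.8 to 62.6), where RpL22 itself had 135 RPM, against 573 to 919 RPM in the other adult samples. BG3 cells were the only line above 1% (3.03%, interval 1.84 to 4.94, from 15 reads). In embryos RpL22-like had no read at 0-45 min and 8.81 RPM at 18-24 h, while RpL22 had 511 RPM at 0-45 min and 1618 RPM at 18-24 h.

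RpS19b is the partner of RpS19a, a small-subunit protein whose human counterpart is mutated in Diamond-Blackfan anaemia. RpS19b had 859 RPM in testis and RpS19a 771 RPM, a share of 52.7% (51.6 to 53.8). Ovary had 5.11 RPM of RpS19b (58 reads), and head and male carcass had 1 read each. It had at least 16 reads in 9 of the 10 cell lines and 1 read in BG3, and was highest among them in OSS at 54.0 RPM, a share of 2.07%. Embryos had 0.160 RPM at 0-45 min, no read at 45-90 min, 27.2 RPM at 90 min to 6 h and 4.39 to 7.01 RPM in the later windows.

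RpS10a, partner of RpS10b at the beak of the small subunit, had 145 RPM in testis, a share of 23.5% (22.0 to 25.1). The mbn2 line had 59.6 RPM (2.72%), the embryos of 90 min to 6 h had 21.7 RPM (0.887%), and ovary had 9.51 RPM (0.328%). RpL37b, partner of RpL37a, had 132 RPM in testis (29.0%, interval 27.1 to 30.9), 28.0 RPM in whole male and 7.31 RPM in OSS cells, while head, ovary and male carcass had at most 3 reads. Head and ovary RNA-seq held no read of RpL37b.

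RpS28b, a small-subunit protein at the mRNA exit, has a pair of low-level relatives. RpS28-like had 360.2 RPM in testis (30.5% of the family, interval 29.3 to 31.8) and RpS28a had 63.0 RPM (5.34%, interval 4.78 to 5.96), against 757 RPM of RpS28b. RpS28-like was at least 1178-fold higher in testis than in male carcass, which had no read of it. RpS28a had no read in ovary, head, male carcass, any embryo or any cell line, and was at least 197-fold higher in testis than in head and at least 238-fold higher than in ovary. RpS28-like overlaps the gene CG3769 on the same strand, so that reads counted for it may be shared.

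**Figure D4:**
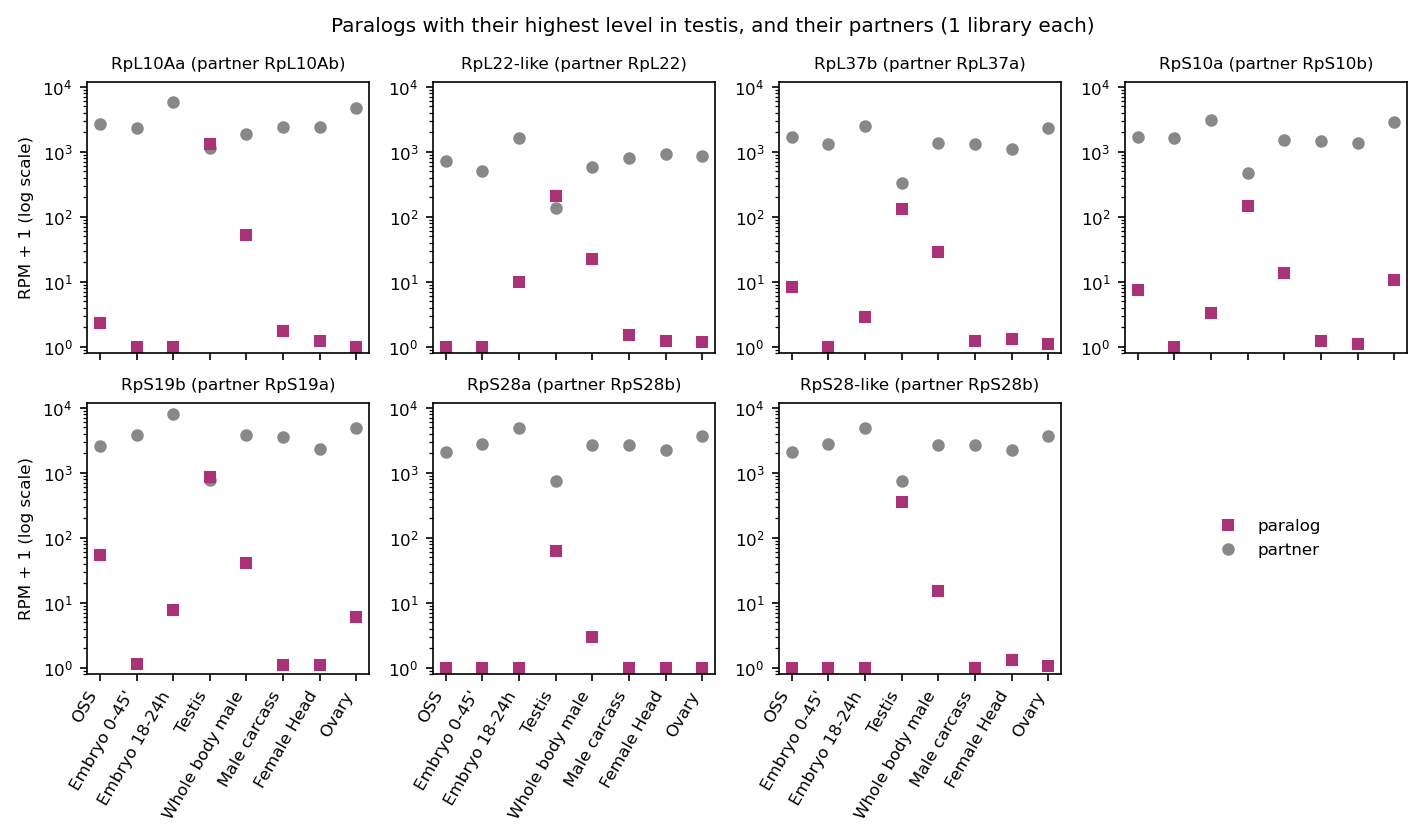
Levels of the 7 paralogs with their maximum in testis (squares) and of their partners (circles) in 8 libraries, as RPM + 1 on a log axis, 1 library per point. In testis the paralogs reach 63.0 to 1326 RPM, and 3 of them (RpL10Aa, RpL22-like and RpS19b) lie above their partner.

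RNA-seq gave similar testis shares for most of these genes, namely 54.7% for RpL10Aa, 59.9% for RpL22-like, 47.6% for RpS19b, 27.8% for RpL37b, 37.4% for RpS10a, 22.1% for RpS28-like and 6.21% for RpS28a. A read in RNA-seq can fall anywhere in a transcript, and the paralogs of RpL37a and RpS10b are annotated with shorter exons than their partners (422 against 1296 nt and 604 against 1557 nt). Per exon length, RpL37b made up 54.2% and RpS10a 60.6% of their pair in testis. In 3′-seq, which reads transcript ends, the same shares were 29.0% and 23.5%, so only the length-corrected RNA-seq put these 2 paralogs above their partners. The exon length counts all annotated exons of a gene, and it can exceed that of the transcripts present. RpL10Aa (59.7%) and RpL22-like (57.2%) stayed above 50% per exon length. RpS19b was above 50% in 3′-seq and per exon length (63.1%) and below it in uncorrected RNA-seq counts.

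RpS5b followed another pattern, with its maximum in ovary. RpS5b had 2011 RPM and RpS5a 1631 RPM in ovary, a share of 55.2% (54.7 to 55.7), against 0.409% in female carcass (37 reads of RpS5b) and 0.0189% in head (3 reads). RNA-seq gave 48.3% in ovary, or 57.6% per exon length. Among the other adult samples, RpS5b was 36.5% of the pair in whole female, 23.9% in testis (163 RPM) and 14.8% in whole male (255 RPM), and 0.0324% in male carcass. Ovary and maternal markers moved with it in part. Summed over 8 genes they reached 26854 RPM in ovary, 8686 RPM in whole female, 841 RPM in whole male and 778 RPM in testis, of which Cp36 made 733 RPM, while osk stood at 1.70 RPM in testis. RNA-seq of testis gave an RpS5b share of 21.2%. The part of these markers in the whole-male and testis values was not tested.

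In embryos, from the window of 90 min to 6 h on, each later window had more RpS5a and less RpS5b (1 library per window). RpS5b had 502 RPM at 0-45 min, 430.0 RPM at 45-90 min (36 reads), 537 RPM at 90 min to 6 h, 332 RPM at 6-12 h, 99.5 RPM at 12-18 h and 83.7 RPM at 18-24 h. RpS5a had 738, 717, 1379, 2866, 3741 and 4939 RPM in the same windows. The share of RpS5b was therefore 40.5% (39.4 to 41.6) at 0-45 min, 37.5% (28.5 to 47.5) at 45-90 min, 28.0%, 10.4%, 2.59% and 1.67% (1.51 to 1.84) at 18-24 h. The interval at 45-90 min overlaps those of both neighbouring windows, and no other neighbouring windows overlap.

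Cell lines held little RpS5b, with 2 exceptions. Dmd32 had 730.4 RPM, a share of 11.6% (11.1 to 12.2), and OSS cells had 107 RPM, a share of 6.30% (5.82 to 6.82). The other 8 lines had 0 to 17.9 RPM, at most 0.336%. Of the 8 ovary and maternal markers, Dmd32 had no read of nos, vas, bcd and Cp36, and otu was highest at 12.0 RPM of the 14.8 RPM in all. The same 8 markers summed to 663 RPM in OSS, of which tj made 622 RPM, and to 580 RPM in BG3, which had no read of RpS5b. Their part in the RpS5b values was not tested. The RpS5b share was 1.90% ± 3.93 in cell lines (SD, n = 10), against 18.7% ± 21.3 in adult samples (n = 7), which did not pass after adjustment over 13 paralogs (exact permutation p = 0.0248, adjusted p = 0.161).

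The remaining families had both members in most libraries. RpL34a made up 11.1% to 14.8% of the RpL34 pair in cell lines, against 12.8% to 18.6% in adult samples, and it was 23.6% in 0-45 min embryos. Its mean share was 13.3% ± 1.39 in cell lines (SD, n = 10) and 16.4% ± 2.32 in adult samples (n = 7), and the difference did not pass over 13 paralogs (exact permutation p = 0.00607, adjusted p = 0.0789). It passed the exact permutation test without female head (adjusted p = 0.0162) or without female carcass (adjusted p = 0.0487). None of the 13 paralogs tested for share passed with all libraries, and the smallest adjusted p was that of RpL34a.

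RpS15Ab, partner of RpS15Aa, a small-subunit protein, took 0.610% of its pair in cmel1, 5.78% in gm2 and 7.61% in testis (6.75 to 8.56), the highest share of the 23 libraries. Its own level was not highest there, with 52.8 RPM in testis, 120 RPM in ovary and 231 RPM in Dmd32. RpS15Aa had 641 RPM in testis and 5010 RPM in ovary. RpS14a and RpS14b lie next to each other on chromosome X and encode forms of the same protein, so that reads may be split between them. The counts gave RpS14b 12.4% (12-18 h embryos) to 31.1% (gm2) of the pair. RpL24-like made up 6.13% (mldmd16_c3) to 54.1% (gm2) of reads with RpL24, and RpLP0-like 2.46% (female carcass) to 21.2% (testis) with RpLP0. These 2 genes are related to the yeast assembly factors Rlp24 and Mrt4, which ride on the growing large subunit and give way to RpL24 and RpLP0, so that a share does not compare equivalent proteins. Both shares were lower in RNA-seq than in 3′-seq of the same tissues. For RpLP0-like the testis share was 3.43% in RNA-seq, and for RpL24-like it was 22.1% in RNA-seq and 40.1% in 3′-seq. The level of RpLP0-like itself was 43.9 RPM in testis 3′-seq, against 253 RPM in ovary. RpL7-like had no read in any 3′-seq library and 2 reads in ovary RNA-seq, against 216 to 78126 reads of RpL7 in 3′-seq. It overlaps the gene CG34164 on the same strand.

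Adding paralog to partner moved some families toward the single-copy genes and others away. RpL22 alone was 1.39 log2 units below the single-copy median in testis against head, and the sum of RpL22 and RpL22-like was 0.07 below it. In testis against ovary, however, RpL22 alone was 0.18 below the median and the sum was 1.15 above it, and in testis against male carcass these values were 0.99 below and 0.33 above. In ovary against female carcass RpS5a alone was 1.19 below the single-copy median, and the sum of RpS5a and RpS5b was 0.03 below it. In contrast, the sum of the RpL10A pair stood 1.54 above the single-copy median in testis against ovary, where RpL10Ab alone stood 0.42 above it. For RpS19 in that comparison, the sum was 0.89 above the median, and RpS19a alone was 0.19 below it. The families of RpL7, RpL24 and RpLP0 were left out of the counts that follow. Across 10 families in testis against ovary, 6 partners alone and 3 sums lay within the middle 50% of single-copy genes. In ovary against female carcass these counts were 4 and 5, in testis against male carcass 4 and 7, and in head against ovary 6 and 7. They were 5 and 5 in testis against head, and 5 and 4 in 18-24 h against 0-45 min embryos. In OSS cells against ovary they were 6 and 6, and in whole male against whole female 2 and 2.

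In head against ovary, 57 of 86 members were lower and none was higher (background 39.9% lower and 33.9% higher). The members' median of -1.12 stood 0.69 below that of all genes. RpS5b was again lowest, and RpL22 had the highest ratio (919 RPM in head against 866 RPM in ovary). RNA-seq gave 65 of 84 lower and none higher (background 39.8% lower and 33.4% higher). With RLE scaling the median of all genes moved to 0.64 and 2 members were higher and 3 lower, while the members' median stood 0.70 below that median. In ovary against female carcass 42 of 86 members were higher and none was lower (background 49.8% higher and 27.7% lower). The members' median of 0.94 differed little from the 0.99 of all genes, and under RLE scaling the direction turned, to 2 higher and 15 lower. RpLP0-like, at 253 RPM in ovary against 30.2 RPM in female carcass, was past 2-fold higher under TMM, next to RpS5b and RpS10a. RpS10a had only 9.51 RPM in ovary and no read in female carcass.

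In 18-24 h against 0-45 min embryos 36 of 86 members were higher and 1 was lower (background 36% higher and 36.2% lower). The members' median was 0.94, which stood 1.14 above all genes. With library totals 4 were higher and with RLE 85, and the median stood 1.17 and 1.08 above that of all genes. The highest ratios were those of RpL22-like (42 reads against none), RpS19b (33 reads against 1) and RpS5a (4939 against 738 RPM). For RpL22-like and RpS19b, with 8.81 and 6.92 RPM at 18-24 h, the ratio depends on the 1 RPM added to each level. The lowest ratios were those of RpS5b, RpS15Ab (90.0 against 79.9 RPM) and RpL24 (1304 against 1147 RPM).

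OSS cells against ovary had 24 of 87 members lower and 2 higher (background 38.6% lower and 18% higher), with a median of -0.73 against -0.66 for all genes. The counts were 2 lower and 2 higher with RLE and 2 lower and 3 higher with library totals. The lower ones included RpL31, with 760.0 RPM in OSS cells against 3967 RPM in ovary. The higher ones were RpS19b (54.0 against 5.11 RPM) and RpL37b (7.31 against 0.0880 RPM). In whole male against whole female 7 of 90 members were higher and 1, RpS5b, was lower (background 50.9% higher and 5.93% lower). The members' median of 0.09 stood 0.96 below that of all genes. With library totals 10 were lower and 7 higher.

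Within this set, some genes ranked differently by 3′-seq level and by RNA-seq level per exon length. The genes named here were chosen as the highest and lowest by 3′-seq. Over all gene models, the paper reports a strong linear relation between the assays in each tissue. RpL41 had the highest median 3′-seq level of the single-copy genes (8192 RPM over 23 libraries), before RpS3 (6538 RPM) and RpS23 (5175 RPM), and RpS6, the target of S6 kinase, had the lowest (257 RPM), after RpS24 (442 RPM) and RpL3 (476 RPM). Per exon length in RNA-seq, RpL41 was also first of 65 in testis, head and ovary, with 8771 RPKM (reads per kilobase of exon, with libraries scaled as for RPM) in ovary. RpS6, last of 65 by 3′-seq in all 3 tissues, was 28th per exon length in ovary, with 1424 RPKM, where the single-copy median was 1269. RpS3, 7th by 3′-seq in ovary, was 29th.

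The offset between the assays belonged to the gene more than to the tissue. The log2 ratio of 3′-seq RPM to RNA-seq RPKM ranged over the 65 genes from -1.90 (RpS6) to 4.28 (RpL23A), with a median of 1.14 and an SD of 1.15. For a single gene its SD over testis, head and ovary had a median of 0.10 and reached 0.48 for RpL23A. RpL23A overlaps the snoRNA host gene Uhg7 on its strand, and RpS6 overlaps CR33222.

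In the other species fewer members carry a symbol, 38 in *D. yakuba* and 6 in *D. virilis*, and the remaining genes there were not matched. In *D. yakuba* testis against ovary all 37 members with at least 5 RPM were more than 2-fold lower (background 33.8%), with log2 ratios from -2.08 to -1.52 and a median of -1.84. RpS27A was the member below 5 RPM. The same 38 genes in *D. melanogaster* had a median of -2.56 and were all past 2-fold lower. In *D. virilis* the 6 named members (RpL14, RpL15, RpL31, RpL32, RpS3 and RpS18) were all more than 2-fold lower in testis than in ovary (background 35.7%), with log2 ratios from -3.47 to -2.75. RpS3, for example, had 505 RPM in testis against 5613 RPM in ovary of *D. virilis*, 1628 against 5362 RPM in *D. yakuba*, and 1219 against 5856 RPM in *D. melanogaster*. RNA-seq gave medians of -1.85 in *D. yakuba* (37 of 37 lower, background 36%) and -2.63 in *D. virilis* (6 of 6 lower, background 33%). In head against ovary the assays differed for *D. yakuba*, where 8 of 37 members were more than 2-fold lower in 3′-seq (background 38.7%) and 37 of 37 in RNA-seq (background 43.7%), with medians of -0.86 and -1.26. In *D. virilis* all 6 were lower in head in both assays (background 35.8% in 3′-seq and 34.5% in RNA-seq). The difference between species was not tested, since each tissue had 1 library per assay. Partners of RpS14a, RpS15Aa and RpS19a, and the other paralogs, have no symbol in those tables and were not analysed here.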

How the data were processed

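Chemically fragmented total RNA was sequenced from oligo-dT primed ends (3′-seq, single-end 50-nt reads) or as stranded total RNA (RNA-seq). The authors aligned RNA-seq reads with HISAT2 at default settings, to dm6 for *D. melanogaster*. The submitters' processing notes name HISAT2 and Trimmomatic 0.36, and the alignment settings of the 3′-seq reads are not given in the sources used here. Reads of both assays were counted with featureCounts on annotated genes lengthened by the 3′ ends found in the same study. All deposited values used here are raw counts of reads per gene, 1 column per library, and no column was left unmapped.

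From these counts, TMM factors (edgeR 4.0.16) gave RPM, reads scaled to a library of 1000000. Classes were compared with edgeR's quasi-likelihood test in a fit of 23 libraries without covariates, with Benjamini-Hochberg adjustment over all genes. DESeq2 1.42.0 served as an alternative. The libraries of a class are different samples, not repeats of 1 condition, so that p-values measure the spread between them. Single values were compared with exact two-sided permutation tests (scipy 1.17.1). Library pairs were compared as log2(RPM + 1), with at least 5 RPM in either library and a 2-fold limit, and without a test. Paralog shares carry 95% Wilson intervals, and the floor is 3 reads. Code was tested on simulated data.

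The members and gene lists were chosen with earlier results of these data known. Named are all family members, the 3 most extreme in each comparison, the 5 single-copy genes of largest SD, and the 3 highest and 3 lowest by level. All 92 members were placed in the BDGP6.54 annotation, RpL37a and RpL37b through synonyms as RpL37-1 and RpL37-2. Sequences were not used here. Alternatives were other scalings, filters, pseudocounts and fold limits, DESeq2, RNA-seq in place of 3′-seq, and leaving libraries out. The values of 1 single-copy gene are not reported here by name.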

Additional observations from a re-analysis of the deposited data

Results flagged for a closer look

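A library is listed here when its value lay far from the rest of its class by Dixon's criterion. Chance alone meets it in about 1 of 20 groups of normally distributed values. Among the groups here were paralog shares with no read in several libraries, for which that rate does not hold. The criterion was met 15 times in 53 groups of values examined, which is a description and not set against chance.

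Testis stood apart among the 7 adult samples in the share of 7 paralogs. These were RpL10Aa (54.1% of the family), RpL22-like (60.2%), RpL37b (29.0%), RpS10a (23.5%), RpS19b (52.7%), RpS28a (5.34%) and RpS28-like (30.5%). Whole male, which includes testes, was the next highest adult sample for each of them. Whole female stood apart in RpL18, at -0.31 log2 units relative to the median single-copy gene, against -0.84 to -0.70 in the other adult samples.

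Among cell lines, the outlying values were 0.137% for RpL10Aa in gm2 (14 reads), 3.03% for RpL22-like in BG3 (15 reads), 2.72% for RpS10a in mbn2 and 2.07% for RpS19b in OSS cells. Among embryos, they were 0.541% for RpL22-like at 18-24 h, and 0.887% for RpS10a and 0.528% for RpS19b at 90 min to 6 h. The share of RpS10a and that of RpS19b thus stood out in the same embryo library.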

How the results depend on the processing

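No paired analysis was possible because every condition had 1 library. In cell lines against adult samples (27 members called), 13 were called with RLE, 69 with library totals and 10 without the whole-body libraries, and leaving out 1 library gave 11 to 29. In embryos against adult samples (none called), there were 13 calls with DESeq2, 15 with library totals, 1 with RLE, 1 with TMM factors made without the members, 1 without the 45-90 min embryos, 2 without the count filter, and 0 to 2 with 1 library left out. In cell lines against embryos, DESeq2 called 2, and leaving out 1 library gave 0 to 1. The share of reads was higher in embryos than in adult samples by 65202 RPM in TMM-scaled sums, which did not pass. The paralog share passed for 0 to 1 paralogs with 1 library left out.

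Counts past 2-fold moved most with scaling. With RLE they were 86 in 18-24 h against 0-45 min embryos (37 in all with TMM), 4 in OSS cells against ovary, 5 in head against ovary and 17 in ovary against female carcass. With library totals they were 5 in the embryo comparison, 5 in OSS cells against ovary and 17 in whole male against whole female. At a 4-fold limit they were 4 in the embryo comparison, 4 in OSS cells against ovary, 5 in head against ovary, 4 in ovary against female carcass, 10 in testis against head and 21 in testis against male carcass. Testis against ovary stayed within 1.5 times its count in every alternative run, but its single-copy median moved from -2.49 with TMM to -1.31 with RLE. The 45-90 min embryos, at 42379 reads, give wide intervals and few detectable paralogs. The promoter and protein sequences planned for the families were not analysed here.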
